A study of Mus musculus with 3 samples.

Results

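Runx1, Runx2 and Runx3 encode the DNA-binding subunits of the core binding factor, and Cbfb encodes their common partner. The members were taken by gene symbol, and 3 of the 4 (Runx1, Runx3 and Cbfb) had a probe that names a single gene, among 19938 genes so named. Runx2 was not analysed here. The measurements came from 3 arrays of total RNA, 1 per condition, in mouse CD4 T cells of the OT-II strain, B6.Cg-Tg(TcraTcrb)425Cbn/J, whose transgenic T cell receptor recognises an ovalbumin peptide on class II molecules. Naive splenic cells (CD4+CD25-CD62LhighCD44low) were activated with Ova peptide on T-cell-depleted splenic antigen-presenting cells from Il23a-/- mice, which lack the p19 chain of IL-23, in all 3 cultures. Th0 cells received no cytokine, Th22 cells IL-6, and Th17 cells IL-6 + TGFβ. Cells were purified by MACS, a separation on magnetic beads, after 60 hours. No source used here gives the age of the mice or says whether cells were pooled.

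Each Runx protein binds DNA through a Runt domain, and CBFβ, which does not contact DNA itself, strengthens that binding and protects the Runx protein from degradation. The complex activates some genes and, with corepressors of the Groucho/TLE family, silences others. In T cells Runx factors silence Cd4 in cells of the CD8 lineage, Runx3 acts with T-bet at Ifng and at the Il4 silencer in Th1 cells, and Runx1 acts at the Il17 locus and with Foxp3 in regulatory T cells. Runx1 and Runx3 are each transcribed from a distal and a proximal promoter.

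The distal promoters are shown first, because the Runx genes share a stretch there that carries the family's own binding motif. In the RefSeq promoter windows of GRCm38.p6, which run from 250 bases before to 50 bases after a transcript start, the longest stretch common to Runx1, Runx2 and Runx3 was 18 bases long. It was found in 4 of 32851 windows. The fourth was that of Gm16225, a lncRNA gene whose window overlaps the Runx3 distal window on the other strand, so the 4 windows cover 3 separate loci. The stretch holds ACCACA, which is TGTGGT read on the other strand, in 2 copies. The lines below give 30 bases around it on the strand of each gene, with matches to TGTGGT or TGCGGT on either strand in capitals. They lie at chr16:92826025-92826054 (minus strand), chr17:44814583-44814612 (minus strand) and chr4:135120503-135120532 (plus strand).
Runx1 distal: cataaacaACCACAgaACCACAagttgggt
Runx2: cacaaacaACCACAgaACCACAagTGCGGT
Runx3 distal: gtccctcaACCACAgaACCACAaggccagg

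The stretch lay after the transcript start in Runx1, from position 27 to 44, and in Runx2, from 22 to 39, counting the first transcribed base as 1. In Runx3 it lay before the distal start, from position -136 to -119. The 250 bases before the Runx3 distal start (chr4:135120395-135120644, plus strand) show its place, with the same motifs in capitals.
Runx3 distal upstream: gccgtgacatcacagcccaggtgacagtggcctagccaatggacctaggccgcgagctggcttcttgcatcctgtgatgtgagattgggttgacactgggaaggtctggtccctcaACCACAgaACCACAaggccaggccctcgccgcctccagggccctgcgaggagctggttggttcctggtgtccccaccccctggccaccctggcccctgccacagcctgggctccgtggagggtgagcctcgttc

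Neither motif was found in the proximal windows of Runx1 and Runx3 or in the window of Cbfb. The GC content was 69% in the Runx1 proximal window and 77.3% in that of Runx3, against 45% and 63.7% in their distal windows. At least 1 match stood in 22.4% of all 32851 windows and over 1 match in 2.86%. A match describes the letters and does not show that a factor binds. The Runx1 probe lists 4 of 4 curated RefSeq transcripts of the gene, that of Cbfb 4 of 4 and that of Runx3 1 of 2. Which start each transcript uses was not analysed here, so no value is assigned to a promoter.

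The deposited values are centred so that each probe has a median of 0 across the 3 arrays, on a log scale whose base is not stated and was taken as 2. A value of 0 therefore marks the middle array of a gene and says nothing of its level, and genes cannot be ranked against each other. Each of the 3 measured members had 1 probe, and with 1 array per condition no difference has a replicate check and no test was run. The yardstick was the difference between separate probes of one gene. Where at least 1 of those probes differed between the arrays, that difference had an SD of 0.21 log2 between Th17 and Th22 (790 genes), of 0.16 between Th22 and Th0 (793 genes) and of 0.22 between Th17 and Th0 (778 genes). This yardstick holds the error of probes and none of the variation from culture to culture. The values of the Th17 array were the most spread (SD 0.28 log2 over 28853 probes, against 0.17 for Th0 and 0.12 for Th22), which touches every comparison with Th17. On centred values a condition that differs most from the others also has the widest spread. A wider array scale and a larger difference of condition therefore cannot be told apart here.

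Runx1, which acts in the Th17 and regulatory programs, was high on the Th17 array alone. Its centred log2 value was 0 in Th0, -0.05 in Th22 and 1.21 in Th17. Th0 and Th22 lay 0.05 log2 apart, under 1 SD between probes, while Th17 lay above both. Runx1 was 2.40-fold higher in Th17 than in Th22 (1.26 log2, 6.14 times the SD between probes). Of the 19938 genes 358 had a larger difference in either direction, and 155 were further towards Th17. Against Th0 Runx1 was 2.32-fold higher in Th17 (1.21 log2), with 437 genes further apart. Both calls of at least 2-fold were lost when the arrays were forced to a common spread. Quantile normalization left 1.83-fold against Th22 and 1.74-fold against Th0, and scaling the arrays to equal SD left 1.87-fold and 1.78-fold.

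Cbfb, the gene of the shared partner, was also highest in Th17, with smaller differences there than Runx1. Its centred log2 value was 0 in Th0, -0.14 in Th22 and 0.55 in Th17. It was 1.61-fold higher in Th17 than in Th22 (0.69 log2, 3.36 times the SD between probes), with 862 genes further apart. It was 1.46-fold higher in Th17 than in Th0 (0.55 log2), with 1370 genes further apart. The lower value in Th22 than in Th0, by 1.11-fold, was within 1 SD between probes. Cbfb did not reach 2-fold in any comparison, and it kept its direction in each under quantile normalization and under scaling to equal SD. Scaling could not have changed the direction, since Cbfb was 0 in Th0 with opposite signs in Th22 and Th17.

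Runx3, which acts in Th1 and cytotoxic cells, was instead lowest in Th17. Its centred log2 value was 0 in Th0, 0.19 in Th22 and -0.23 in Th17. It was 1.33-fold lower in Th17 than in Th22 (-0.42 log2, 2.02 times the SD between probes), with 1737 genes further apart. The 1.14-fold higher value in Th22 than in Th0 and the 1.17-fold lower value in Th17 than in Th0 were 1.18 and 1.05 times that SD. Runx3 stayed under 2-fold in every comparison. The order Th17 above Th0 above Th22, that of Runx1 and Cbfb, was held by 1279 genes (6.41%). The reverse, that of Runx3, was held by 1364 (6.84%). The 7507 genes equal on all 3 arrays, and others equal on part of them, could hold neither order. Among genes with distinct values the shares are therefore higher, and neither order is rare. For Runx1 and Cbfb the step between Th0 and Th22 was under the SD between probes.

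**Figure D1:**
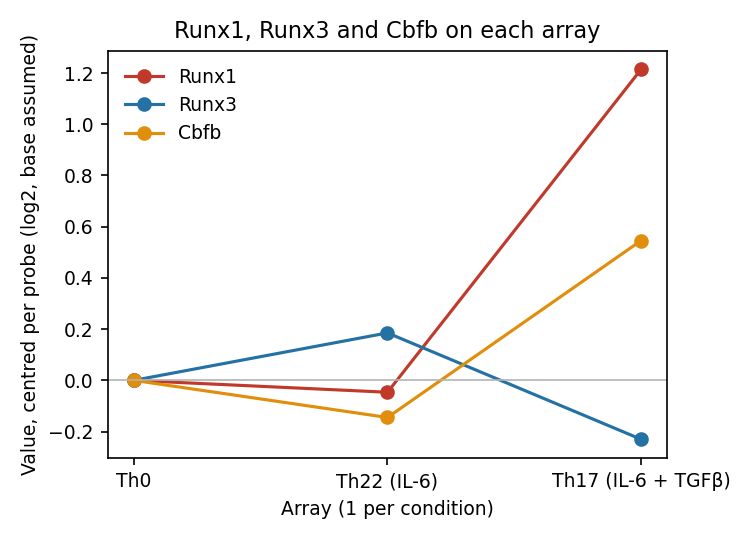
Value of Runx1, Runx3 and Cbfb on each of the 3 arrays, in log2 centred on each probe's median, with 1 point per array and lines that only join the points of a gene. Runx1 and Cbfb are highest in Th17 (1.21 and 0.55) and Runx3 is lowest there (-0.23).

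What TGFβ added to IL-6 is the question of Th17 against Th22, and there the differences ran in opposite directions within the family. The difference of Runx1 lay 1.68 log2 above that of Runx3, and the difference of Runx3 minus that of Cbfb was -1.11 log2. At least 2-fold was reached by 1 of the 3 members, higher in Th17, where 1.1% of all genes were at least 2-fold higher and 2.61% differed in either direction. At least 1.5-fold was reached by 2 of 3, against 5.48% of all genes. In Th22 against Th0, the comparison for IL-6 alone, 0 of 3 members reached 2-fold and 0 of 3 reached 1.5-fold, where 0.808% and 2.41% of all genes did. In Th17 against Th0, 1 of 3 reached 2-fold and the same number 1.5-fold, where 3.03% and 6.32% of all genes did. The comparisons share arrays in pairs and are not independent. The shares of all genes, here and below, include the 37.7% of genes that were equal on all 3 arrays. Such genes could not pass either threshold.

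**Figure D2:**
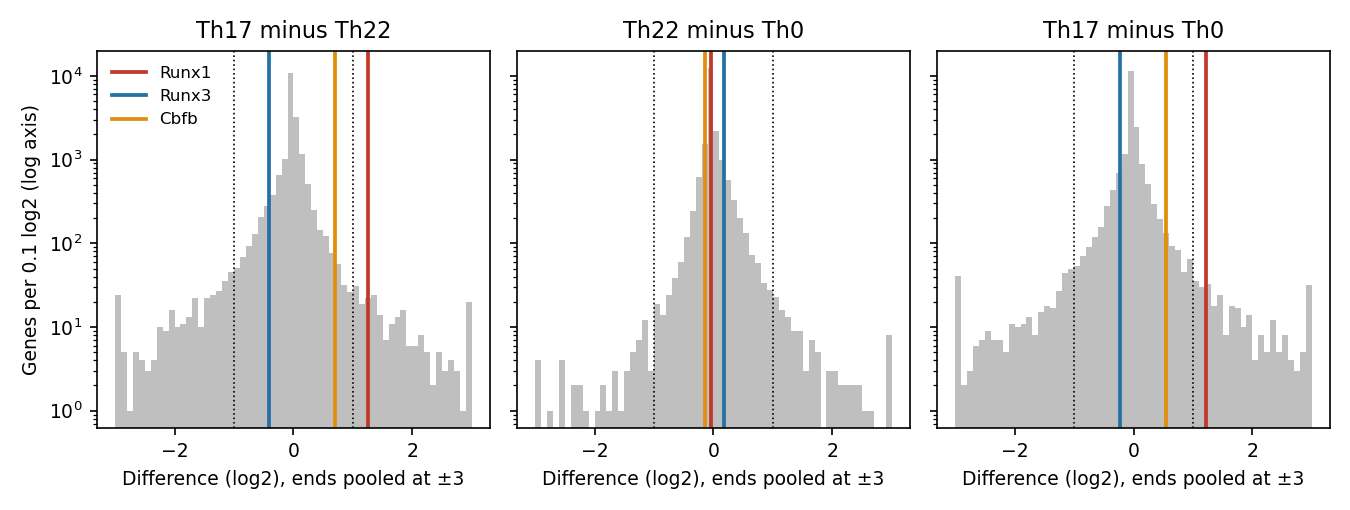
Differences of all 19938 genes (grey, genes per 0.1 log2 on a log axis, ends pooled) in each comparison, with coloured lines at Runx1, Runx3 and Cbfb and dotted lines at 2-fold. Runx1 alone of the 3 lies past 2-fold, in both comparisons with Th17 (1.26 and 1.21 log2).

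Markers of other cells were set beside these values. All 12 measured pan T cell genes lay within 2-fold in every comparison. Against Th22, 2 of them were higher in Th17 and 10 lower (median -0.28 log2). Against Th0, 6 were higher in Th17 and 6 lower (median -0.02 log2). The sum of the centred values of the 12 genes was -0.29 log2 in Th0, 1.82 in Th22 and -1.15 in Th17. Of 11 CD8 and NK cell markers, a cell group rich in Runx3, the sum was 1.79, -0.21 and -0.67 in the same order of arrays. The Th17 sum sets Klrd1 at 2.92 against Gzma at -2.28 and Cd8b1 at -1.14. In Th17 against Th22 the CD8 chain gene Cd8b1 was 2.20-fold and the granzyme gene Gzma 4.85-fold lower. The NK receptor gene Klrd1 was 7.55-fold higher (2.92 log2), while Ncr1, Klrb1c and Klra8 were equal on all 3 arrays. Of 18 myeloid and dendritic cell markers 11 were equal on all 3 arrays and none differed by 2-fold, with sums of 0.80, 0.23 and 0.03. Of 11 B cell markers 6 were equal on all 3 arrays, among them Cd79a, Cd79b, Pax5 and Cd22, with sums of -0.22, 1.53 and 0.28. Ebf1 (1.62 in Th22 and -1.05 in Th17) and Cd72 (1.34 in Th17) weighed most in the Th22 and Th17 sums. The B cell factor gene Ebf1 was 6.36-fold lower in Th17 than in Th22 and 3.07-fold higher in Th22 than in Th0, and Cd72 was 2.53-fold higher in Th17 than in Th22. All 6 measured erythroid and platelet markers were equal on all 3 arrays. The part of these markers in the values of the members was not tested, and in bulk RNA fewer cells of a type cannot be told apart from less RNA per cell.

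Among corepressors, 1 of 18 measured genes was at least 2-fold apart in Th17 against Th22 (5.56%, where 2.61% of all genes were). That was Tle4, a Groucho corepressor that binds the end of Runx proteins, at 2.08-fold higher in Th17. Its centred log2 value was 0 in Th0, -0.35 in Th22 and 0.70 in Th17, highest in Th17 as for Runx1 and Cbfb. The call held under quantile normalization (2.94-fold) and equal SD (2.02-fold). Tle1, of the same family, was 1.42-fold higher in Th17 than in both other arrays, whereas Tle3 was highest in Th22, 1.22-fold above Th17 and 1.27-fold above Th0. The histone deacetylase gene Hdac4 was 1.76-fold higher in Th17 than in Th22 and 1.996-fold higher than in Th0. None of the 18 reached 2-fold in the comparisons with Th0 on the deposited values, but under quantile normalization Tle4 in Th22 lay 2.07-fold below Th0, against 1.27-fold as deposited. Runx1t1, the ETO gene fused to human RUNX1 in leukaemia, Sin3a and Sin3b were equal on all 3 arrays, which cannot be told from absence of signal.

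None of 21 coactivator and modifying enzyme genes reached 2-fold in any comparison, where 2.61% of all genes did in Th17 against Th22, 0.808% in Th22 against Th0 and 3.03% in Th17 against Th0. The acetyltransferase gene Kat6b was 1.68-fold higher in Th22 and 1.76-fold higher in Th17 than in Th0. The ubiquitin ligase gene Smurf1 was 1.70-fold higher in Th17 than in Th0, and Src was 1.56-fold higher in Th17 than in Th22. The acetyltransferase gene Ep300 was 1.26-fold lower in Th17 than in Th22. The median difference of the list was 0.04 log2 for Th17 against Th22 and 0 in the other comparisons, and the median of all genes was 0 in each.

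**Figure D3:**
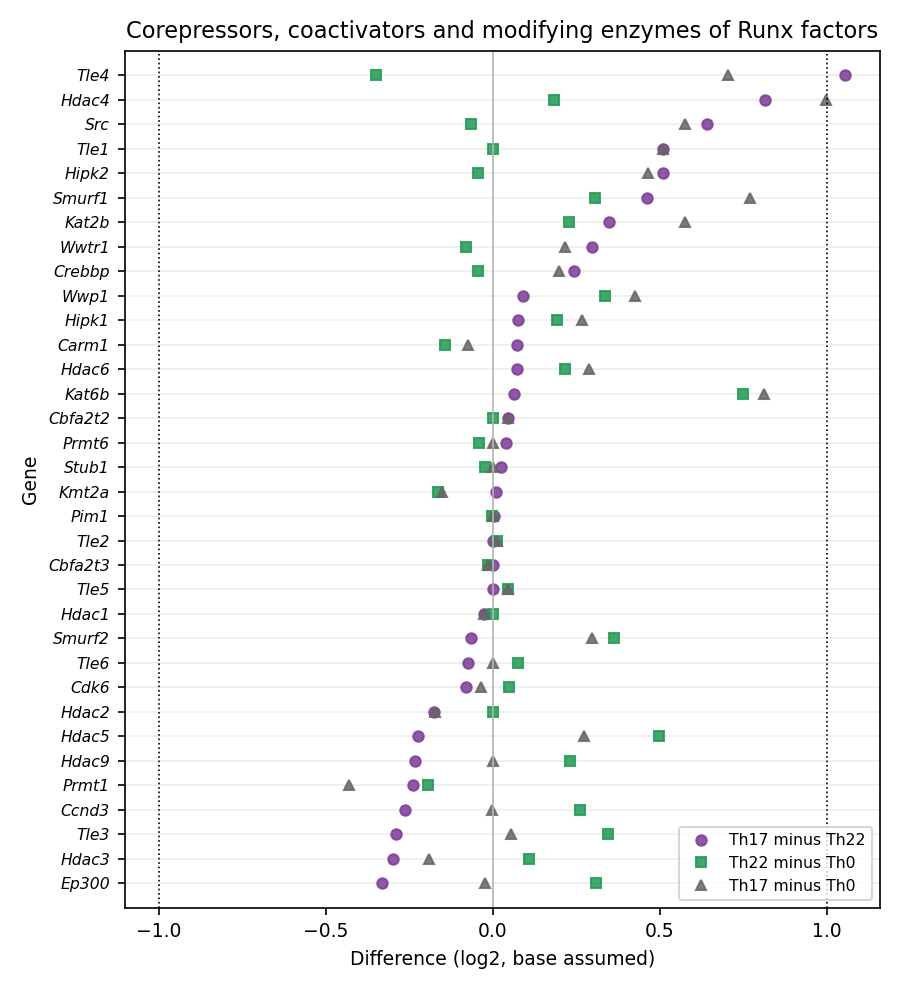
Differences in log2 of the 34 corepressor, coactivator and modifying enzyme genes that were not equal on all 3 arrays, with 1 point per comparison and dotted lines at 2-fold. Tle4 passes 2-fold for Th17 against Th22 (1.06 log2) and the others lie inside.

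Among DNA-binding partners of Runx factors, the lineage regulators lay furthest apart. Of 26 measured, 2 passed 2-fold towards Th17 and 2 towards Th22, where 1.1% and 1.5% of all genes did. The higher ones were Foxp3 (12.6-fold), the regulatory T cell factor that binds Runx1, and Rora (3.03-fold), a Th17 nuclear receptor. The lower ones were Tbx21 (6.30-fold), which encodes T-bet, a partner of Runx3 that also binds Runx1, and Gata3 (6.27-fold), the Th2 factor. These folds shrank with the scaling of the arrays: under quantile normalization and equal SD, in this order, Foxp3 was 8.46-fold and 6.17-fold higher, Tbx21 2.95-fold and 3.52-fold lower and Gata3 2.93-fold and 3.51-fold lower. Foxp3, like Runx1, was highest in Th17, with -0.15 log2 from Th0 to Th22 and 3.65 from Th22 to Th17. The step from Th0 to Th22 was under the SD between probes for both genes. Tbx21 and Gata3 were instead lower in Th22 than in Th0 as well, by 2.27-fold and 3.50-fold. Runx3 was highest in Th22, but only by 1.18 times the SD between probes over Th0. Rora was 2.62-fold higher in Th22 than in Th0.

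The ETS factor gene Ets1, whose protein binds DNA together with Runx1, lay within 1.25-fold in all 3 comparisons, and the T cell factor gene Bcl11b within 1.39-fold. Ets2 was 1.59-fold lower in Th17 than in Th22. Smad3, which encodes a carrier of the TGFβ signal that binds Runx proteins, was 1.64-fold higher in Th17 than in Th22 and 2.82-fold higher than in Th0. Spi1, Cebpa and Gata1, myeloid and erythroid partners, were equal on all 3 arrays.

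T cell genes known to be bound or controlled by Runx factors, a list chosen with earlier results of these arrays known, held more genes lower than higher in Th17. Of 33 measured, 4 passed 2-fold towards Th17 and 10 towards Th22, while 1.1% of all genes were higher in Th17 by this rule and 1.5% lower. The other 19 lay within 2-fold, and the median was -0.23 log2 against 0 for all genes. On this list 2 of 33 genes were equal on all 3 arrays, against 37.7% of all genes, so the shares are not of like genes. Foxp3, Tbx21 and Gata3 are also on the list of DNA-binding partners, so the counts of these lists overlap. The higher genes were Foxp3, Il17a (3.96-fold, and 2.57-fold under quantile normalization), Il17f (2.62-fold) and Itgae, which encodes the αE integrin CD103 (2.59-fold). The integrin gene, like Runx1, was highest in Th17, at -0.19 log2 from Th0 to Th22 and 1.37 from Th22 to Th17. Itgae is known as a target that Runx3 activates in CD8 cells. Here Runx3 was lowest in Th17, 1.33-fold below Th22 and 1.17-fold below Th0 (2.02 and 1.05 times the SD between probes). The part of Runx3 in the values of Itgae was not tested.

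The 10 lower genes included cytotoxic, growth cytokine and chemokine genes. Gzmb, the granzyme B gene, was 89.3-fold and Prf1, the perforin gene, 2.20-fold lower in Th17 than in Th22. The growth cytokine gene Il3, whose human promoter Runx proteins bind, was 29.3-fold lower and Il2 8.58-fold lower. Quantile normalization left 30.1-fold for Gzmb, 14.9-fold for Il3 and 3.71-fold for Il2, and equal SD left 21.6-fold, 10.1-fold and 4.35-fold. The chemokine genes Ccl3 and Ccl5 were 4.64-fold (2.44-fold under quantile normalization) and 2.51-fold lower, and Tnfrsf18, which encodes GITR, 2.11-fold. Ccl3 has close relatives, and so has Gzmb, so the probe signal may not belong to 1 gene. Of the 16 listed genes past 2-fold in this comparison over the Runx lists together (100 measured), 11 stayed past it under quantile normalization and 11 under equal SD. Those lost under both were Il17f, Prf1, Tnfrsf18, Ccl5 and Cd8b1.

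**Figure D4:**
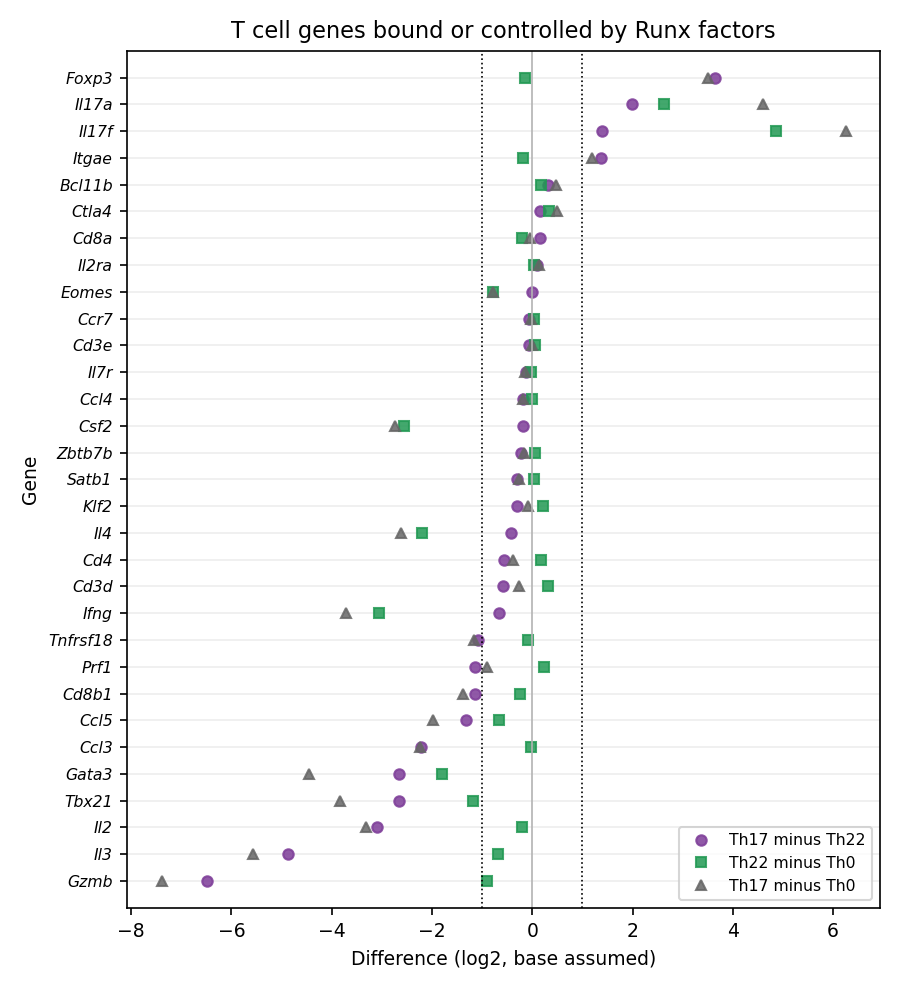
Differences in log2 of the 31 T cell genes on the Runx target list that were not equal on all 3 arrays, with 1 point per comparison and dotted lines at 2-fold. Foxp3, Il17a, Il17f and Itgae lie above 2-fold for Th17 against Th22, and 10 genes, with Gzmb lowest at -6.48 log2, lie below it.

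Of the genes at the lineage choice between CD4 and CD8 cells, Cd4, Zbtb7b and Cd8a lay within 2-fold in each comparison, and Cd8b1 was 2.20-fold lower in Th17 than in Th22. Cd4, which carries the silencer that Runx proteins bind in CD8 cells, was 1.47-fold lower in Th17 than in Th22 and 1.30-fold lower than in Th0. Zbtb7b, which encodes ThPOK, the factor that opposes Runx3 in the CD4 lineage, was 1.17-fold lower in Th17 than in Th22. Cd8a was 1.11-fold higher.

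In Th22 against Th0 the list held 2 genes past 2-fold towards Th22, Il17f (29.0-fold) and Il17a (6.14-fold), and 5 towards Th0, where 0.547% of all genes were higher in Th22 and 0.261% lower. Ifng was 8.36-fold, Csf2 5.86-fold, Il4 4.60-fold, Gata3 3.50-fold and Tbx21 2.27-fold lower. With equal SD Il17f was 46.4-fold higher, and under quantile normalization Ifng was 12.7-fold lower. Gzmb, 1.88-fold lower as deposited, passed 2-fold under quantile normalization (2.30-fold) and equal SD (2.05-fold), and Eomes under quantile normalization (2.11-fold, against 1.73-fold). In the same comparison Runx1 differed by -0.05 log2 and Runx3 by 0.19 log2, 0.295 and 1.18 times the SD between probes. The part of Runx factors in the differences of the listed genes was not tested. Ifng, which Runx3 activates with T-bet, and Il4, which both silence, were both lower. In Th17 against Th0, 4 of 33 passed 2-fold towards Th17 and 12 towards Th0, with a median of -0.26 log2, where 1.47% of all genes were higher in Th17 and 1.56% lower. Eomes was 1.73-fold lower as deposited and 2.11-fold under quantile normalization. Itgae, Cd8b1 and Tnfrsf18 (2.27-fold higher, 2.61-fold lower and 2.25-fold lower) were under 2-fold with quantile normalization, at 1.72-fold, 1.96-fold and 1.67-fold.

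Bone genes that Runx2 controls in osteoblasts were measured for 8 of 12 members. Of these 7 were equal on all 3 arrays, among them Sp7, which encodes osterix, and Ibsp, where 37.7% of all genes were. Equal values cannot be told from absence of signal. The exception was Tnfsf11, which encodes RANK ligand and is also a T cell cytokine gene, 2.18-fold lower in Th22 and 3.37-fold lower in Th17 than in Th0. Of all genes, 0.261% were at least 2-fold lower in Th22 than in Th0 and 1.56% in Th17 than in Th0.

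The genes nearest to a member over the 3 centred values were named for members whose values spanned at least 0.5 log2. Nearest to Runx1 by Euclidean distance were Tnfrsf12a (0.04 log2), Rasgef1b (0.05), Cerk (0.06), Mir181b-1 (0.07) and Slc16a10 (0.08), which were 1.15 to 1.32 log2 higher in Th17 than in Th22. Nearest to Cbfb were Cnot6 (0.0071), Igfbp7 (0.03), Myh9 (0.03), Ercc6 (0.04) and Pmaip1 (0.04), which were 0.63 to 0.70 log2 higher. With 3 arrays many genes fall close together, so the likeness is a description of these values alone. Runx3 spanned 0.42 log2, and no gene was named for it.

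The promoter windows of measured genes were searched for the same letters, TGTGGT and TGCGGT on both strands. At least 1 match stood in a window of 3777 of 15614 genes (24.2%). It stood in 50 of 173 genes past 2-fold towards Th17 in the comparison with Th22 (28.9%) and in 76 of 234 past 2-fold towards Th22 (32.5%). In Th22 against Th0 it stood in 27 of 81 higher genes (33.3%) and 10 of 42 lower genes (23.8%), and in Th17 against Th0 in 67 of 229 (29.3%) and 66 of 244 (27.0%). Among the T cell genes on the Runx list it was 10 of 26 (38.5%). These shares are given without a test, and the number of windows per gene was not taken into account.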

How the data were processed

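Total RNA of mouse CD4 T cells was measured on 3 single-colour Affymetrix arrays, grouped as Th0, Th22 and Th17 by the subset in the labels. The authors' deposited values were taken as log2 for 28853 probes. The values show that each probe was centred on its median over the arrays, which was 0 for all 28853. No source used here gives the probe summary, background correction, normalization, log base or genome build. Higher values were read as more RNA. A plan to use levels could not be followed on centred values.

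Probes were named from the platform annotation. Symbols of 21698 of 21789 single-symbol probes were updated by Entrez identifier with the RefSeq gene table of GRCm38.p6, 1621 probes with several symbols and 5443 unlisted ones were left out, and the probes of a gene were averaged (19938 genes, 999 with over 1 probe). Of all probes 40.3% were equal on all 3 arrays. Their signal over background is unknown, and the number of arrays limits precision.

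Genes at least 2-fold apart were counted, with no test, since each group had 1 array. The code was tested on simulated data. The named genes were the members, a few listed genes (Cd4, Zbtb7b, Foxp3, Tbx21, Gata3, Ifng, Il4, Il2, Il17a, Ets1, Tle1, Tle3, Tle4, Bcl11b and Itgae among them), listed genes past 2-fold and the 5 genes nearest to a member. Other listed genes were named after their values were seen. The members and lists were chosen with earlier results of these data known. Lists covered corepressors, coactivators, DNA-binding partners, T cell targets, bone genes and markers of B, myeloid and dendritic, CD8 and NK, pan T and erythroid cells. Alternatives were quantile normalization, equal array SD, other probe summaries, natural logs and a 1.5-fold threshold. Python 3.11.15, numpy 2.4.6 and pandas 2.3.3 were used.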

Additional observations from a re-analysis of the deposited data

How the results depend on the processing

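The direction of every member difference was kept under each alternative tried. Equal SD and natural logs could not have changed it, since each member was 0 in Th0 with opposite signs in Th22 and Th17. Quantile normalization keeps the order of values within an array, so the kept directions are little check of the result. The 2-fold call of Runx1 was not kept under all alternatives. Under quantile normalization Runx1 was 0.87 log2 higher in Th17 than in Th22 and 0.80 higher than in Th0, and with equal array SD 0.90 and 0.83, so the number of members past 2-fold went from 1 to 0 in both comparisons under both settings. Both settings shrink the Th17 array, which had the widest spread, and stretch the Th22 array, which had the narrowest. They may thereby change the difference between the conditions as well as array scale, which cannot be told apart on centred values. With natural logs Runx1 would be 1.82 log2 higher in Th17 than in Th22 and 1.75 higher than in Th0, and Cbfb 0.997 and 0.79 log2. At 1.5-fold the count of listed genes went from 16 to 25 for Th17 against Th22, from 9 to 15 for Th22 against Th0 and from 19 to 29 for Th17 against Th0, by construction. Over all genes, the split at 2-fold for Th22 against Th0 was 109 higher and 52 lower as deposited, 150 and 158 under quantile normalization and 189 and 83 with equal SD. For Th17 against Th22 it was 220 and 300, 197 and 202, and 148 and 265. The other probe summaries moved none of the member values, since each member had 1 probe. No paired analysis was possible because each group had 1 array.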
